A study of Mus musculus with 4 samples.

Results

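RNA-seq counts of norepinephrine-treated and vehicle-treated Myc-CaP cells, in which focal adhesion kinase (FAK) had been lowered, were compared. Myc-CaP is a mouse prostate cancer line with the strain label FVB and the Hi-Myc transgene, an oncogene model of prostate cancer. All cells compared here carried stably transfected short hairpin RNAs (shRNAs) against FAK, and are called shFAK. The shFAK norepinephrine library came from cells given 10 µM norepinephrine for 24 h, and the shFAK vehicle library from cells given vehicle for 24 h. These are 2 of the 4 libraries of the series. The other 2 came from Myc-CaP cells with a negative control hairpin, called shNC, given the same treatments, and are used only for comparison. With 1 library in each group there was no replicate of any condition, and no test of variation between cultures was made. The labels do not say how many hairpins, clones or cultures stand behind a library, and the cells are a line in culture, with no nerve, stroma or immune cell around them. Of 52636 annotated genes, 12121 had at least 1 count per 1000000 (CPM) in either shFAK library and were compared, 10728 of them protein-coding.

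Norepinephrine is the main transmitter of sympathetic nerves, which run through the prostate. It binds alpha- and beta-adrenergic receptors. Beta receptors raise cyclic AMP (cAMP), which activates protein kinase A and the transcription factor CREB, while alpha receptors act through calcium or lower cAMP. FAK, encoded by Ptk2, is a tyrosine kinase at focal adhesions, where integrins tie the matrix to actin, and it takes part in signalling for adhesion, migration and survival.

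The shFAK libraries held 26016936 counts in vehicle and 23410486 in norepinephrine, and the shNC libraries 29948640 and 27598343. Ptk2 had 1294 counts in shFAK vehicle and 1248 in shFAK norepinephrine, against 3547 and 3158 in the matching shNC libraries, so both shFAK libraries were below both shNC libraries. Of the luminal markers given here, Foxa1 (15388 to 15512 counts in shFAK) and Hoxb13 (1096 to 1121) were abundant, while Krt8 had 48 to 50 counts and Krt18 at most 4. Fibroblast, endothelial and leukocyte markers had at most 17 counts in shFAK, except Pdgfra at 299 to 326, Cd68 at 26 to 36 and Col1a1 at 24 in both libraries. The shFAK norepinephrine library stood apart from the other 3 in its low counts. It had 119 genes with at least 8 counts there and at most 2 in each other library, against 4 in shFAK vehicle, 9 in shNC vehicle and 7 in shNC norepinephrine. Only 1 library of this condition was analysed here, so no result could be repeated without it, and genes past the size rule with a mean CPM under 5 are marked as low-level below.

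Most genes differed little between norepinephrine and vehicle in shFAK. A log2 ratio of norepinephrine over vehicle was computed for each gene from its CPM, with an exact 99% interval that covers counting error only. The size rule asks for a difference of at least 1.5-fold with an interval that leaves out 0. Of the 12121 genes, 152 (1.25%) were higher by this rule and 53 (0.437%) lower. Of these, 120 of the higher and 40 of the lower genes were low-level genes, with a mean CPM under 5, where they made up 5.37% and 1.79% of the 2235 kept genes. The 9413 protein-coding genes whose mean CPM reached 5 are called well-counted genes here, and 25 of them (0.266%) were higher by the rule and 8 (0.085%) lower. The excess of higher genes went on just above this limit. At a mean CPM of 5 to 10, 20 of 984 kept genes of any biotype were higher and 2 lower. In the well-counted genes the log2 ratios had an SD of 0.15 across genes, with 96.5% within 1.25-fold. The same figures for norepinephrine in shNC were 0.26 and 79.9%, with 75 genes (0.797%) higher and 151 (1.6%) lower. Among the well-counted genes the spread of ratios was therefore narrower in shFAK than in shNC, for these single pairs of libraries. In kept genes with a mean CPM under 5 it was wider in shFAK, with an SD of 0.55 against 0.48 in shNC. Genes were kept by their CPM in the shFAK libraries alone, so genes high in only 1 of these entered the set. The wider spread at low level thus cannot be read as a difference between the lines. In bulk RNA, fewer cells of a kind and less RNA per cell cannot be told apart.

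**Figure D1:**
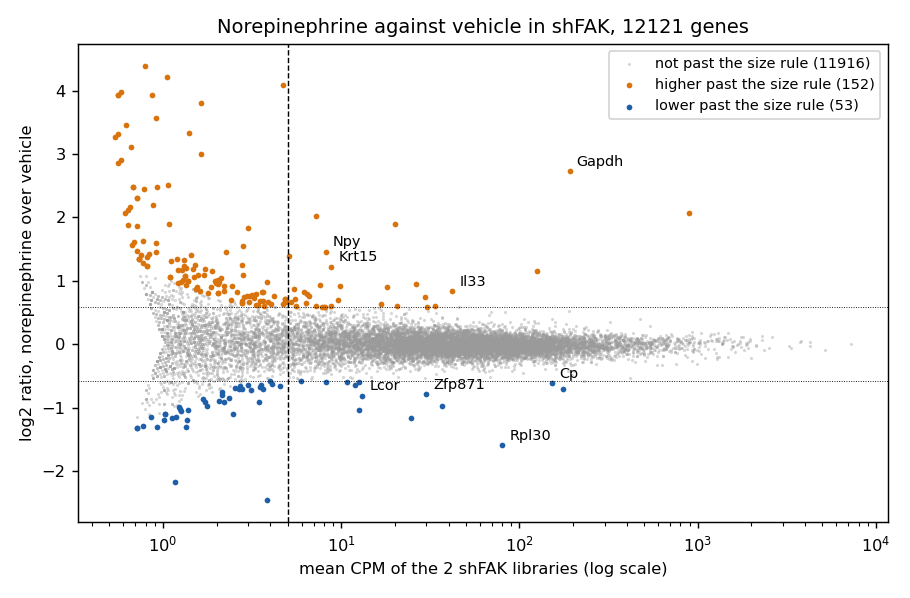
Each point is 1 of the 12121 genes, with the mean CPM of the 2 shFAK libraries on a log axis and the log2 ratio of norepinephrine over vehicle. Orange (152 genes) and blue (53 genes) mark those past the size rule, the dotted lines are 1.5-fold and the dashed line is a mean CPM of 5, left of which 120 of the orange points lie.

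The gene for neuropeptide Y, Npy, a transmitter stored with norepinephrine in sympathetic nerves and also made by prostate cancers, had the highest ratio among the well-counted genes without a near-identical copy in the genome. Npy (mm10 chromosome 6, 49822710 to 49829507, plus strand) had 115 counts with vehicle and 289 with norepinephrine in shFAK. This was a 2.74-fold higher level (log2 1.46, interval 1.06 to 1.90). In shNC it had 66 counts in vehicle and 213 in norepinephrine, a log2 ratio of 1.81 (1.32 to 2.40). Npy was thus higher with norepinephrine in both lines, and the interval of the difference between the lines, -1.01 to 0.30, held 0.

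A cytokine and its receptor were both higher. Il33 (chromosome 19, 29925114 to 29960718), which encodes the alarmin interleukin-33, had 799 counts in vehicle and 1295 in norepinephrine, a 1.79-fold difference (log2 0.84, interval 0.67 to 1.01). In shNC it went from 304 to 541 counts (log2 0.98, 0.72 to 1.26). Il1rl1 (chromosome 1, 40429570 to 40465415), which encodes ST2, the receptor of interleukin-33, had 180 and 308 counts (log2 0.91, 0.57 to 1.28). Its ratio in shNC was 0.51, from 278 and 357 counts, with an interval of 0.21 to 0.82. Btc (chromosome 5, 91357261 to 91402994), which encodes betacellulin, a ligand of the epidermal growth factor receptor, had 102 and 170 counts (log2 0.87, 0.41 to 1.36). In shNC Btc was at 84 and 87 counts, a ratio of 0.20 whose interval held 0.

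Krt15, a keratin of basal epithelial cells, had 139 counts in vehicle and 296 in norepinephrine, a 2.33-fold difference (log2 1.22, interval 0.85 to 1.63), and 205 and 254 in shNC (log2 0.46, 0.11 to 0.82). Of the other basal markers, Krt14 was at 109 and 70 counts, Krt5 at 7 in both libraries and Trp63 at 7 and 8, so the basal list did not move as one. Mgp, which encodes matrix Gla protein, an inhibitor of calcification, had 138 and 240 counts (log2 0.93, 0.54 to 1.35), and 348 and 551 in shNC (log2 0.81). Slpi, a secreted inhibitor of leukocyte proteases, had 432 and 595 counts (log2 0.60, 0.37 to 0.84), and 126 and 185 in shNC (log2 0.70). Apof, an apolipoprotein, had 129 and 200 counts (log2 0.77, 0.35 to 1.21), and 41 and 93 in shNC (log2 1.29). These 3 secreted products were past the size rule in both lines.

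The remaining well-counted higher genes with no near-identical copy had ratios of 0.59 to 0.91. Plekhg4 was at 332 and 565 counts (log2 0.91), and its exons overlap Kctd19 on the other strand, so reads of the pair cannot be told apart in a library without strand. Prr13, a proline-rich protein, was at 585 and 890 counts (log2 0.75) and Csad, an enzyme of taurine synthesis, at 193 and 285 (log2 0.70). The others were Ankrd35 (0.79), Fndc4 (0.72), Adamts10, a secreted metalloproteinase (0.66), Hic1, a transcriptional repressor (0.65), Zfp580 (0.60), Lrfn1 (0.60), Eng, the TGF-beta co-receptor endoglin (0.59), and Ccdc130 (0.59), the values being log2 ratios. Exons of Csad overlap Zfp740 and those of Eng overlap Fpgs on the other strand. Adamts10 was at 144 and 127 counts in shNC, a ratio of -0.03, the only one of these 19 genes with a ratio below 0 there.

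Fewer genes were lower, and the well-counted ones without a copy were lower in shNC as well. Zfp871, a zinc finger gene, had 1004 counts in vehicle and 524 in norepinephrine (log2 -0.79, interval -0.998 to -0.593), and 538 and 186 in shNC (log2 -1.37). Lcor (chromosome 19, 41482645 to 41562246), which encodes a corepressor of nuclear receptors, had 444 and 228 counts (log2 -0.81, -1.13 to -0.51), and 313 and 126 in shNC (log2 -1.15). Cp, the copper-carrying ferroxidase ceruloplasmin, had 4906 and 2898 counts (log2 -0.62, -0.70 to -0.53), and 5795 and 3742 in shNC (log2 -0.48). Cp overlaps Hps3 on the other strand. Sytl5, a synaptotagmin-like protein, had 263 and 156 counts (log2 -0.60), and 224 and 102 in shNC (log2 -0.97). Next by size, with intervals below 0 but ratios short of 1.5-fold, were Col4a5, a basement membrane collagen (924 and 576 counts, log2 -0.54), and Slc9a7, a sodium-proton exchanger (177 and 110, log2 -0.54).

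**Figure D2:**
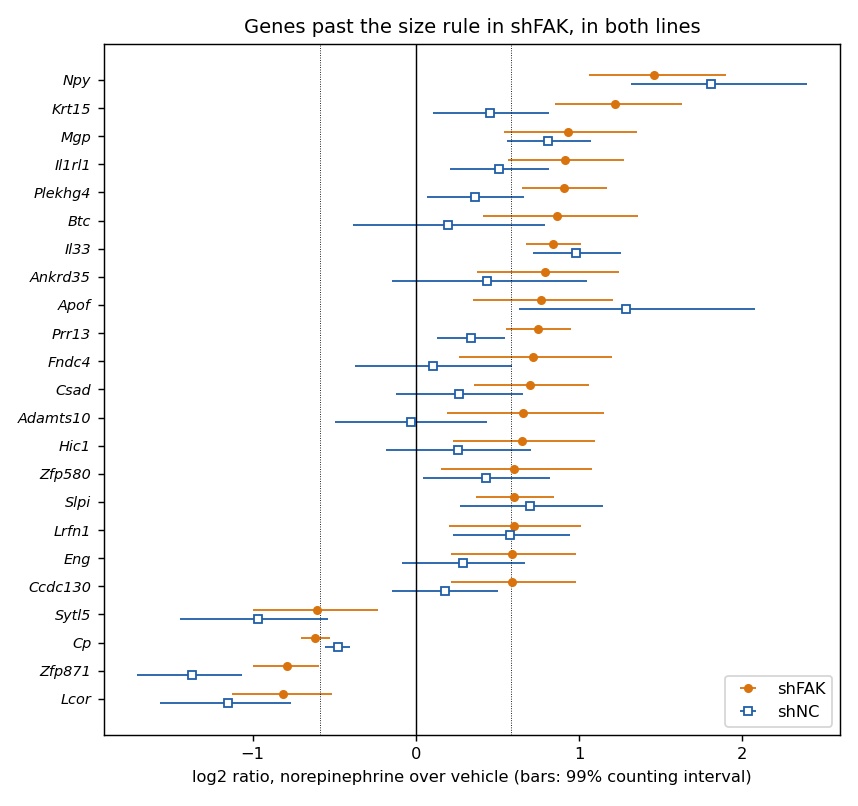
Log2 ratio of norepinephrine over vehicle for the 19 higher and 4 lower well-counted genes past the size rule in shFAK without a near-identical copy. Values are shown in shFAK (filled circles) and shNC (open squares), with 99% counting intervals as bars and 1.5-fold as dotted lines. In shNC 18 of the 19 higher genes are above 0 and all 4 lower genes are below it, and the shFAK values are those that chose the genes.

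Over all 25 higher genes, which were chosen by their ratios in shFAK, the median ratio was 0.72 in shFAK and 0.43 in shNC. In shNC, whose libraries were not used to choose them, 22 of the 25 had a ratio above 0 and 8 were higher by the size rule, against 48.9% and 0.797% of the 9413 genes. Of the 8 lower genes, 6 had a ratio below 0 in shNC and 4 were lower by the rule, against 51.1% and 1.6%. Read the other way, the 75 genes that were higher by the rule in shNC had a median of 0.68 there and 0.26 in shFAK, where 64 were above 0 and 8 past the rule, against 48% and 0.266% of the well-counted genes. The 151 lower in shNC had medians of -0.66 there and -0.26 in shFAK, where 144 were below 0 and 4 past the rule, against 52% and 0.085%. Genes chosen in either line were thus mostly on the same side of 0 in the other line, with medians nearer 0. The shFAK and shNC ratios were correlated over all 9413 well-counted genes (Spearman 0.65), so agreement in sign was not limited to the chosen genes. Whether the chosen genes agreed beyond this correlation was not tested. The median in the line that chose a set is a description of the choice.

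Among the well-counted genes the largest ratios in both directions belonged to genes with near-identical copies, among which reads cannot be placed with certainty. Gapdh, the glycolytic enzyme gene often used as a reference, had 1328 counts in shFAK vehicle, 7968 in shFAK norepinephrine, 9948 in shNC vehicle and 6186 in shNC norepinephrine, a log2 ratio of 2.73 in shFAK. Its 88 copies are mainly processed pseudogenes, and 1 of them, Gm13394, alone had 38996 and 37293 counts in shFAK. Summed over Gapdh and the 87 copies in the count table, there were 42414 counts in vehicle and 47063 in norepinephrine (log2 0.29, interval 0.27 to 0.32). Rpl30, a ribosomal protein gene, had 3198 and 961 counts (log2 -1.59), and 13307 and 11008 with its copies (log2 -0.13, -0.18 to -0.08). The ratios of these sums were thus nearer 0 than those of Gapdh and Rpl30 alone. How reads were shared out within either family was not tested.

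Of the 10 named genes past the rule with a copy, 5 stayed past it when copies were summed. These were Hba-a1 (0.63), Mfap1b (0.59), Atg9b (0.59), mt-Co3 (-0.62) and mt-Atp6 (-0.67), the values being log2 ratios of the sums, and the 5 that did not were Gapdh, Rpl30, Srp54a (-0.19), Rnaset2b (0.29) and Farp2 (-0.07). Hba-a1 encodes alpha globin and had 347 and 487 counts in shFAK and 239 and 454 in shNC. The beta globin genes Hbb-bs and Hbb-bt were at 0 in all 4 libraries. The matches of Atg9b and Farp2 are Nos3 and Stk25, different genes that overlap them on the other strand. Stk25 alone had 1917 and 1750 counts in shFAK, against 345 and 205 for Farp2, so the Farp2 sum is mostly Stk25. Of the genes next in size, Rpl17 was at -0.58 alone and 0.046 with its copies. Hipk2, a kinase, was at -0.53 alone and -0.45 with Ubn2, also a different gene. Summing was chosen after these values were seen.

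Among genes that are not protein-coding, 7 were higher and 5 lower by the rule at a mean CPM of at least 5, and 10 of these 12 are pseudogenes with a copy. Of the 1393 kept genes that are not protein-coding, at any level, 569 are processed pseudogenes. The share of pseudogenes with a copy among those at this level is not given here. The 10 of 12 is therefore a description of the 12 genes only. The highest in count of the 12 was the lincRNA Gm26917 (chromosome 17, 39843013 to 39846341), singled out after its values were seen. It had 9091 counts in shFAK vehicle, 34565 in shFAK norepinephrine, 10485 in shNC vehicle and 11241 in shNC norepinephrine (log2 2.07 in shFAK and 0.25 in shNC). It ends 12 bases before Rn18s-rs5, an 18S ribosomal RNA-related sequence of RefSeq. Its counts made up 0.148% of the shFAK norepinephrine library and 0.0349% to 0.0407% of the others, and what part this library difference has in other ratios was not tested.

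Because cAMP acts on many genes through CREB, the 250 bases upstream of the starts of the named genes were searched on both strands for the CRE palindrome TGACGTCA and its core TGACG, which the palindrome contains. Sequences are from RefSeq on GRCm38.p6, the assembly also named mm10, and 19 of the 25 higher and 5 of the 8 lower genes were matched. None of these 24 held the palindrome, which was present in 1.77% of all 27025 genes with a promoter sequence and in 3.34% of the well-counted genes. The core was present in 5 of the 19 higher genes (26.3%) and in none of the 5 lower ones, against 33.4% of the well-counted genes. The upstream sequences of 3 higher genes are shown 5′ to 3′ in the direction of the gene, with the core in capitals. Npy is shown as the well-counted gene with the highest ratio among those without a copy and has no match in this window. Il1rl1, at the start whose window holds the core, and Btc are shown as the ligand and receptor genes with a match, Btc on its reverse strand.
Npy, chr6:49822460-49822709, plus strand: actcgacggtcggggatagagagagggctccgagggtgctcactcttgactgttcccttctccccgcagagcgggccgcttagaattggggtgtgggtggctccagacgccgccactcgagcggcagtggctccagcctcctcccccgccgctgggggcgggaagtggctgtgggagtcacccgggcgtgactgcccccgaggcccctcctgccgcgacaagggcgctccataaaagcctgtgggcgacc
Il1rl1, chr1:40439379-40439628, plus strand: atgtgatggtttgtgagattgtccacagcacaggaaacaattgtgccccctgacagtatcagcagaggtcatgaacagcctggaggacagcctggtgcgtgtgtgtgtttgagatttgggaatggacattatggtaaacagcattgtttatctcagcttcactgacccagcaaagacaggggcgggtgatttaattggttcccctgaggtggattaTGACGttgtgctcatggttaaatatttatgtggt
Btc, chr5:91402995-91403244, minus strand: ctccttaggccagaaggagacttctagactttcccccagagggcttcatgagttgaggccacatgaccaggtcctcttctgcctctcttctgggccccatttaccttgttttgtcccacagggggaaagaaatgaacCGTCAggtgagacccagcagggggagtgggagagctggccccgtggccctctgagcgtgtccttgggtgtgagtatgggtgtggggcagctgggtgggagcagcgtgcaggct
The core lies 34 bases upstream of this Il1rl1 start and 113 bases upstream of the Btc start. A match of these letters is a description and does not show binding.

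Of the adrenergic receptor genes listed here, Adra1b was the most counted, at 383 counts in shFAK vehicle and 369 in shFAK norepinephrine (log2 0.09, interval -0.19 to 0.36). Adra2a was at 32 and 34 counts, and no library had more than 7 counts of Adra1a, Adra1d, Adra2b, Adrb3 or Adrb1. Ptk2 itself was at a ratio of 0.09 (-0.06 to 0.24). Ptk2b, which encodes PYK2, the closest relative of FAK, had 236 and 276 counts (log2 0.37, 0.035 to 0.71), and 170 and 192 in shNC (log2 0.32). Slc18a2, the vesicular monoamine transporter, a low-level gene here, was lower by the rule, at 72 and 38 counts (log2 -0.75, -1.57 to -0.021), with 66 and 75 in shNC (log2 0.33).

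For the gene lists, the count of members whose 99% interval left out 0 at any size is given, against 1277 of all kept genes above 0 (10.5%) and 1519 below (12.5%), with a median ratio of -0.0012. After the trend of ratios with gene length and GC content was taken off, 5.86% of all kept genes were above 0 and 10.1% below. In shNC the shares were 21.9% above and 23.2% below. This split, 45.7% above among those that left out 0, depends on scaling. It was 57.4% with upper-quartile factors and 24.0% with TMM factors from all genes. The range over 6 scalings is therefore given beside list medians and beside some of the counts that moved with the scaling.

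Neuropeptide and neuroendocrine secretory genes were the list with the highest median, 0.41 over 10 kept of 38 listed, and 0.37 to 0.43 over the scalings. The interval was above 0 for 7 of the 10 and below 0 for 1, and 3 were higher by the size rule. Beside Npy these were 2 low-level genes, Calca, which encodes calcitonin and CGRP, at 24 and 45 counts (log2 0.99, 0.09 to 2.07), and Calcb, which encodes beta-CGRP, at 82 and 127 (log2 0.76, 0.24 to 1.32). Calca was at 22 and 24 counts in shNC and Calcb at 84 and 74. Vgf, a secretory granule protein, had 177 and 235 counts (log2 0.55, 0.18 to 0.93), and 310 and 369 in shNC (log2 0.40). The median was 0.23 for only the members whose mean CPM reached 5, and 0.27 for all 10 with the trend taken off.

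Of 22 kept cAMP and CREB-induced genes, 6 had an interval above 0 and 1 below, with a median of 0.13 (0.09 to 0.15 over the scalings). With the trend taken off the median was 0.045, with 5 members above 0 and 1 below. After Npy and Vgf the largest ratios were those of Fosb, an AP-1 subunit (32 and 41 counts, log2 0.47, interval holding 0), and Id3, an inhibitor of helix-loop-helix factors (501 and 631 counts, log2 0.47, 0.25 to 0.70). Id3 was at 0.58 in shNC. Sik1, a kinase that CREB induces, was at 1565 and 1791 counts (log2 0.34, 0.21 to 0.47). Ptgs2, which encodes cyclooxygenase-2, was the member with an interval below 0, at 5213 and 4170 counts (log2 -0.18).

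Immediate early genes, which respond within minutes to growth factors and cAMP, had 8 of 26 members with an interval above 0 and none below. Egr3, a low-level gene, alone passed the size rule, at 26 and 52 counts (log2 1.08, 0.23 to 2.11), with 29 and 34 in shNC. Ier2 was at 1353 and 1500 counts (log2 0.29, 0.15 to 0.43) and Maff at 785 and 848 (log2 0.25, 0.07 to 0.44). With the trend taken off, 3 members were above 0 and 3 below, so the direction of the list did not hold. In receptor coupling and cAMP signalling, 2 of 37 members were above 0 and 8 below (1 to 4 and 7 to 12 over the scalings), among the latter Creb1 (1399 and 1014 counts, log2 -0.32, -0.48 to -0.17). Akap11, an anchoring protein of protein kinase A with a near-identical copy, was at -0.27 (-0.41 to -0.14) and Adcy7, an adenylyl cyclase, at 20 and 34 counts with an interval that held 0.

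Genes of adhesion were mostly lower by small amounts. Of 26 focal adhesion and integrin genes, 18 had an interval below 0 and 2 above, with a median of -0.13 (-0.17 to -0.11 over the scalings, with 15 to 19 members below). With the trend taken off, 17 were below and none above. Tns1, tensin, which ties integrins to actin, was at 22204 and 16264 counts (log2 -0.31, -0.34 to -0.27). Ilk, integrin-linked kinase, was at 96 and 61 counts with an interval that held 0. The ratio of Tns1 in shNC was -0.38, and the list median there was -0.25 with 18 members below 0. None of these members reached 1.5-fold in shFAK. In the FAK complex list 4 of 21 members were above 0 and 4 below (0 to 4 and 4 to 7 over the scalings), with Rasa1, a Ras GTPase-activating protein, at 1273 and 926 counts (log2 -0.32, -0.48 to -0.15).

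Actin and SRF targets had 14 of 25 members with an interval below 0 and 2 above (median -0.06, -0.10 to -0.04 over the scalings). Over the scalings 11 to 16 members were below and 0 to 2 above. Actg2, smooth muscle gamma actin, a low-level gene, was lower by the rule at 44 and 19 counts (log2 -0.998, -2.20 to -0.034), and Acta2, smooth muscle alpha actin, was at 648 and 411 (log2 -0.51, -0.75 to -0.28). Fhl1, a LIM-domain protein, was at 631 and 437 counts (log2 -0.39, -0.62 to -0.15). Acta2 was at 452 and 369 in shNC (log2 -0.14), and the interval of the difference between the lines for Acta2 left out 0. YAP/TAZ targets had 10 of 22 members below 0 and 1 above (10 to 13 and 0 to 2 over the scalings). Ankrd1, a classic target, was at 273 and 197 counts (log2 -0.32) with an interval that held 0, and Amotl1, angiomotin-like 1, had an interval below 0 (17346 and 12568 counts, log2 -0.32, -0.36 to -0.28).

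The extracellular matrix list moved in both directions, with 6 of 26 members above 0 and 10 below. Beside Mgp, Col7a1, the anchoring fibril collagen, was at 274 and 344 counts (log2 0.47, 0.17 to 0.78) and Spp1, osteopontin, at 3505 and 4182 (log2 0.40, 0.31 to 0.48). Loxl2, a collagen cross-linking oxidase named after its value was seen, was at 4191 and 2881 (log2 -0.40, -0.49 to -0.31). The other 2 members past the rule, Loxl1 at 1 and 41 counts and Col18a1 at 11 and 29, were at a mean CPM under 1, and in shNC they were at 5 and 4 and at 17 and 8 counts. Among keratin and junction genes, beside Krt15, Krt13 was at 118 and 160 counts (log2 0.57, 0.12 to 1.05) and Jup, plakoglobin, at 1027 and 1220 (log2 0.39). Krt13 was at 119 and 281 counts in shNC, a log2 ratio of 1.38 there.

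Of 29 NRF2 targets and redox enzymes, 12 had an interval above 0 and none below, with a median of 0.08 (0.04 to 0.10 over the scalings, with 8 to 13 members above and at most 1 below). With the trend taken off, 9 were above and none below. Selenom, an endoplasmic reticulum selenoprotein, was at 356 and 434 counts (log2 0.43, 0.16 to 0.70), Selenop, a secreted selenoprotein with a near-identical copy, at 1328 and 1406 (log2 0.23) and Srxn1, sulfiredoxin, at 2084 and 2152 (log2 0.19). None passed the size rule, and the largest ratio was that of Mt2, a metallothionein, at 14 and 25 counts with an interval that held 0. In shNC the median was 0.17, with 17 members above 0 and 3 below.

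Cholesterol and fatty acid synthesis had 10 of 31 members below 0 and 1 above (9 to 13 and 1 to 3 over the scalings), with Stard4, a sterol carrier, at 1469 and 1086 counts (log2 -0.29). The single member above was Tm7sf2, a sterol reductase with a near-identical copy, at 179 and 233 (log2 0.52, 0.15 to 0.90).

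Proliferation genes differed by less than 1.25-fold. DNA replication genes had 8 of 36 members above 0 and 1 below (median 0.03, E2f1 at 2852 and 3036 counts, log2 0.23). Over the scalings the median ranged from -0.0083 to 0.053 and thus changed sign, with 6 to 9 members above and 0 to 10 below. Mitosis genes had 10 of 30 below 0 and 2 above, or 9 to 16 and 0 to 4 over the scalings (Kif20a at 3072 and 2386 counts, log2 -0.22), and 5 below with the trend taken off. Ribosome biogenesis genes had 10 of 30 below 0 and 3 above, or 8 to 16 and 0 to 5 over the scalings. Heat shock protein genes had 10 of 20 below and 1 above, or 6 to 13 and 1 to 2, with Hsph1 at 5637 and 4364 counts (log2 -0.23). In the cytokine list, Il33 was the only 1 of 18 members past the rule, and 3 were below 0, among them Csf1, a macrophage growth factor (2225 and 1649 counts, log2 -0.29, -0.41 to -0.17).

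The mitochondrially encoded genes were unequal. Of 15, 9 had an interval below 0 and 1 above, and 3 were lower by the rule. mt-Co3 had 907 and 366 counts (log2 -1.16), mt-Atp6 1288 and 593 (log2 -0.97) and mt-Nd4l, at low level, 104 and 56 (log2 -0.73), and all 3 have a near-identical nuclear copy. mt-Co2 was higher, at 2594 and 2999 counts (log2 0.35, 0.25 to 0.45). In shNC, mt-Co3 was at 826 and 972 counts (log2 0.39) and mt-Nd4l at 258 and 43 (log2 -2.38). The median was -0.09 (-0.13 to -0.07 over the scalings), and -0.026 with the trend taken off. A further 13 lists had medians of -0.03 to 0.12 (-0.07 to 0.14 over the scalings), with 3 members higher by the rule and none lower.

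**Figure D3:**
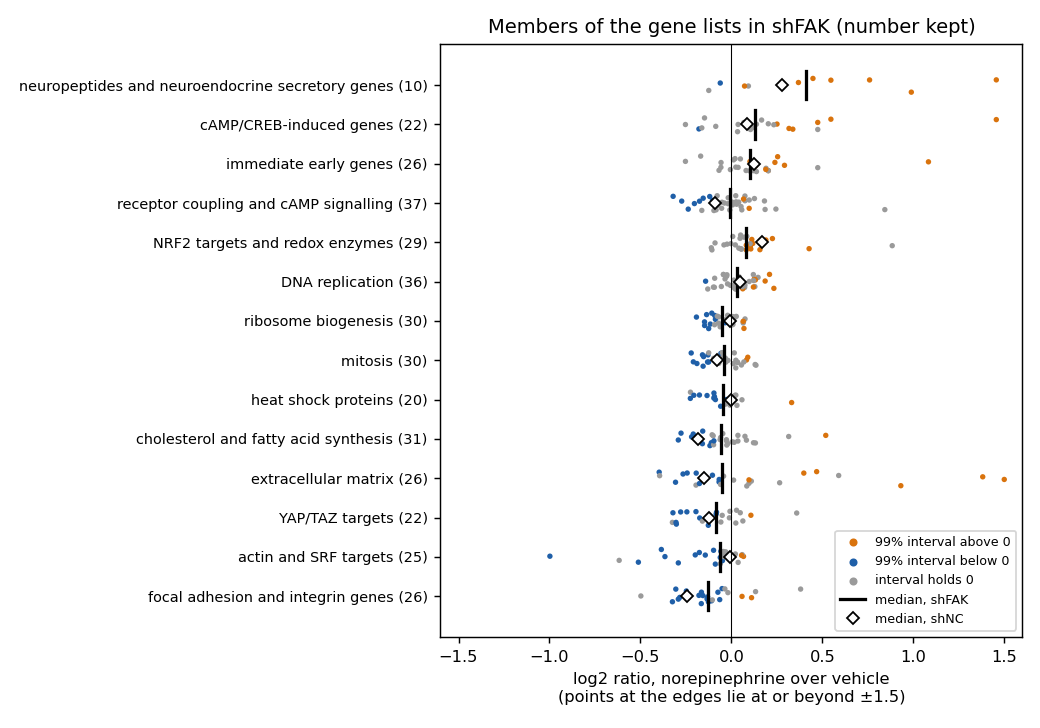
Each point is a kept member of a list, placed by its log2 ratio of norepinephrine over vehicle in shFAK and coloured by whether its 99% counting interval lies above 0, below 0 or holds 0. Black bars are the list medians in shFAK and open diamonds those in shNC, and the number of members is in brackets. Focal adhesion genes lie mostly below 0 (18 of 26 blue) while 12 of 29 NRF2 targets are orange and none is blue.

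Where the response differed most between the lines, copies were again frequent. In the 9413 well-counted genes, the difference of the shFAK and shNC ratios was past 1.5-fold with a 99% interval clear of 0 in 39 genes (0.414%) with the higher ratio in shFAK, called positive, and in 31 (0.329%) with the lower, called negative. Over all kept genes, a set filtered on the shFAK libraries alone, the counts were 140 (1.16%) and 82 (0.677%). After Gapdh, the largest positive differences without a copy were those of Tbc1d32, a cilium gene, at 133 and 145 counts in shFAK and 137 and 77 in shNC (difference 0.93, interval from 0.24), and Zfp329 (0.87). Lnpep, a placental leucine aminopeptidase, had 1058 and 687 counts in shFAK (log2 -0.48) and 864 and 306 in shNC, so it was lower in both lines and less so in shFAK (difference 0.86, from 0.56). Kcnma1, a calcium-activated potassium channel with a copy, was at 242 and 220 counts in shFAK and 249 and 123 in shNC (difference 0.86), and Adamts14, a procollagen peptidase, at 173 and 195 in shFAK and 142 and 87 in shNC (0.86). Nr2c2 (0.89) and Mtcp1 (0.85) have matches under the rule for copies, among them the different genes Mrps25 for Nr2c2 and Cmc4 for Mtcp1.

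Of the 8 largest negative differences, 7 were of genes with a copy, namely Rpl30, Hmgn2, Dynlt1c, Sumo2, mt-Co3, Rpl21 and Psme2b. Hmgn2, a nucleosome-binding protein, had 835 and 800 counts in shFAK and 340 and 1318 in shNC, and with its copies 3495 and 3178 in shFAK and 4032 and 3922 in shNC. Summed in this way, the log2 ratios of Hmgn2 were 0.0063 in shFAK and 0.11 in shNC, against 0.08 and 2.10 for the gene alone. The 1 gene without a copy was Gch1, which makes the cofactor of tyrosine hydroxylase, the first enzyme of norepinephrine synthesis. Gch1 was at 169 and 139 counts in shFAK (log2 -0.14) and 152 and 221 in shNC, a difference of -0.82 with an interval of -1.40 to -0.25.

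The ratios in shFAK also varied with gene length and GC content. In quintiles of length, from the shortest to the longest of the 9413 genes, the median ratio went from 0.07 to -0.10, with 428 of 1883 genes above 0 and 56 below in the shortest and 50 above and 704 below in the longest, against 11.8% above and 15.3% below over all well-counted genes. In quintiles of transcript GC content it went from -0.09 in the lowest to 0.09 in the highest. Spearman's correlation of the ratio across genes was -0.43 with length and 0.50 with GC content, given as a description since genes share libraries. The shNC pair had medians of 0.21 to -0.25 by length and -0.15 to 0.16 by GC. Long, low-GC genes were thus lower with norepinephrine in both lines, and the part of these properties in the list results is given above only as the values with the trend taken off. Of the 25 higher genes, 16 were past the rule with the trend taken off, and of the 8 lower genes 7. Those that fell short were Adamts10 (0.55), Ccdc130 (0.53), Slpi (0.52), Hba-a1 (0.49), Eng (0.48), Atg9b (0.46), Hic1 (0.41), Lrfn1 (0.38), Zfp580 (0.33) and Cp (-0.49). The values are log2 ratios in shFAK with the trend taken off.

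**Figure D4:**
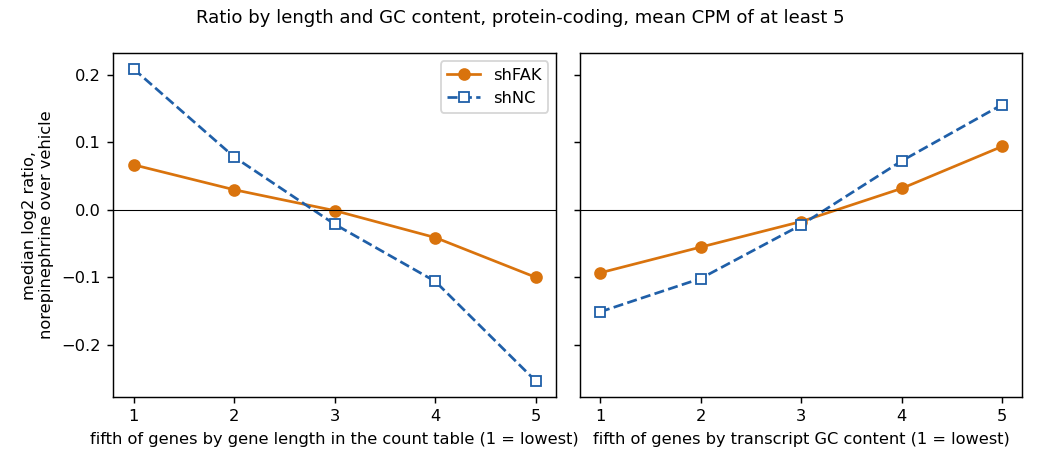
Median log2 ratio of norepinephrine over vehicle for the 9413 well-counted genes, by quintile of gene length (left) and of transcript GC content (right), in shFAK (circles) and shNC (squares). Medians go down with length, from 0.07 to -0.10 in shFAK, and up with GC content, from -0.09 to 0.09, and the span is wider in shNC.

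The genes counted in the shFAK norepinephrine library and nearly absent elsewhere were many and low. The 119 genes with at least 8 counts there and at most 2 in each other library included 111 protein-coding genes, spread over 20 chromosomes, with 8 to 23 counts and a median of 10. Adra2c, an alpha-2 adrenergic receptor (chromosome 5, 35278319 to 35281763), and Pou3f1, a POU-domain factor, had the highest counts, 23 each, against 0 in shFAK vehicle. Set against a floor of 3 counts in shFAK vehicle, this is 8.47-fold. The genes were chosen by these counts, so a large ratio follows from the choice. The counting error of the 23 counts is not in that floor, and the 99% interval of the Adra2c ratio began lower, at log2 2.09. Slc4a1, the band 3 anion exchanger, followed with 22 counts, and Dlk1, Mgat5b and Cd177 with 20 each. Pou3f1 and Cd177 have a near-identical copy. Adra2c had 0 and 1 counts in the shNC libraries, and it is 1 of a set that also holds genes of erythroid, neural and neutrophil cells.

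These genes were rich in GC. The median transcript GC content of the 111 protein-coding ones was 57.2%, against 50.3% in all kept protein-coding genes and 46.3% in the 8639 protein-coding genes with at most 2 counts in each other library, from which they come. Among those low genes the mean count per gene per 10000000 counts went from 0.066 in the lowest GC quintile to 0.91 in the highest in shFAK norepinephrine. The highest value in any quintile of the other 3 libraries was 0.1805, in shNC vehicle. In the highest quintile 6.49% of such genes had at least 8 counts in shFAK norepinephrine and none in shFAK vehicle. In all, 23121 genes had a count in this library, which was the smallest of the 4, against 20442 in shFAK vehicle.

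**Figure D5:**
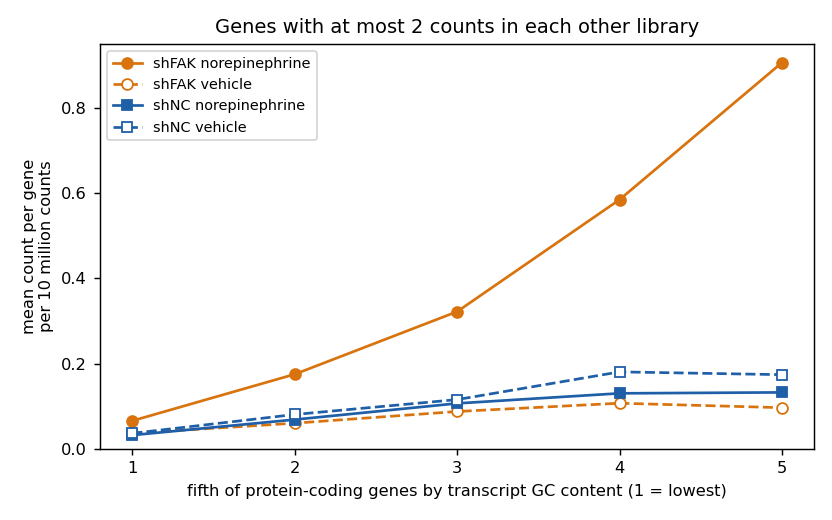
Mean count per gene per 10000000 counts, from 0 upward, for protein-coding genes with at most 2 counts in each of the other 3 libraries, by quintile of transcript GC content. Filled symbols and solid lines are norepinephrine, open symbols and dashed lines vehicle. The shFAK norepinephrine library goes from 0.066 to 0.91 and the highest value of the other 3 is 0.1805.

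Higher genes of low level were also rich in GC. The 120 of them had a median ratio of 1.17 in shFAK and 0.12 in shNC, where 56.7% were above 0 against 52.2% of all kept genes at that level. Their median GC content was 57.5%, against 46.8% in the 40 lower genes of that level, of which 57.5% were below 0 in shNC. Of the 32 higher genes at a mean CPM of at least 5, of any biotype, 27 (84.4%) were above 0 in shNC. The count of higher against lower genes was 20 to 2 at a mean CPM of 5 to 10 and 2 to 5 at 10 to 20. Calca, Calcb, Egr3, Loxl1, Col18a1, Adra2c, Actg2, Slc18a2 and mt-Nd4l have a mean CPM under 5, and the part of the excess of low counts in their ratios was not tested. Nor was it tested for genes at a mean CPM of 5 to 10, among them Npy (8.18), Krt15 (8.78) and Btc (5.46).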

How the data were processed

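Per the labels' protocols, Trizol RNA was made into NEBNext Ultra libraries, a kit without strand marking. Gene-level raw counts were deposited by the authors in 1 table. HISAT2 2.0.5, featureCounts 1.5.0-p3 and mm10 were used per the submitters' processing notes. The annotation release, strand setting and handling of multi-mapping reads are not given in the sources used here. Counts of copied, overlapping or antisense genes are therefore uncertain. Columns were assigned by sample titles, and 95.2% of identifiers shared with GENCODE M21 had its coordinates. Total counts were 23410486 to 29948640 per library.

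TMM effective sizes (edgeR 4.0.16, R 4.3.3, from genes that reached a CPM of 1 in any library) scaled the deposited counts. Log2 ratios had a prior count of 2 and exact 99% Clopper-Pearson intervals, which cover counting error only, since PCR reads are not independent molecules. The difference between the lines had a 99% normal interval on the log scale. A spline trend with length and GC content was taken off as an alternative. A copy was another gene that matched 100 or more bases at 95% identity or more, covering 20% of a transcript or 200 bases (minimap2, GENCODE M21 transcripts), and 32.7% of kept genes had one. Some copies by this rule are different genes that share a stretch of sequence, such as a gene that overlaps on the other strand. The 34 lists, the members and the rule for named genes were chosen with earlier results of these data known. Named were Ptk2, Ptk2b, adrenergic receptors, up to 25 protein-coding genes per direction past the size rule at a mean CPM of at least 5 (filled to 12), up to 4 members of a described list, up to 8 per direction of the difference, and the 6 highest of the genes counted in 1 library. The computation was tested on simulated counts. Some genes of the lists, and 1 list, are not reported here. Alternatives were other scalings, prior counts, filters, thresholds and gene sets. Scaling by TMM factors from all genes, the summing of copies and the count of low genes without copies were added after the data were seen.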

Additional observations from a re-analysis of the deposited data

Results flagged for a closer look

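For 3 of the named genes past the size rule, the single shFAK pair and the single shNC pair went in opposite directions, with counting intervals that left out 0 in both. With 1 library a group this was not tested against variation between cultures. Gapdh was at 2.73 in shFAK and -0.53 in shNC, a difference of 3.26. Rpl30 was at -1.59 in shFAK and 1.67 in shNC, a difference of -3.26. mt-Co3 was at -1.16 in shFAK and 0.39 in shNC, a difference of -1.55. All 3 have near-identical copies. Over all kept genes 8 past the rule did so, and all 8 have a copy. The other 5, found after their values were seen, were the pseudogenes Gm7730, Gm9824, Cbfa2t2-ps1 and Gm44126 and the gene Gm4353. Summed over the gene and its copies, Gapdh was at 0.29 in shFAK and 0.09 in shNC, Rpl30 at -0.13 and 0.31, and mt-Co3 at -0.62 and 0.31, all as log2 ratios. Opposite directions thus remained for the sums of Rpl30 and mt-Co3, with smaller sizes.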

How the results depend on the processing

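Each group was a single library, so no library could be left out. No paired analysis was possible because each group has 1 sample. Counts under about 100 give wide intervals. The median count over the shFAK pair was 98 in kept genes with a mean CPM under 5, against 1641 in all kept genes. The part that the excess of low counts in shFAK norepinephrine has in values under a mean CPM of 5, or at 5 to 10, was not tested. For 168 named genes, 1344 values were taken under other scalings, prior counts or the trend correction. Of these, 33 took a gene out of the rule and 4 brought one in. A change of direction was looked for only in genes past the rule, and none was found. The scalings moved the median of all kept genes only between -0.043 and 0.019, so a scaling could hardly reverse a 1.5-fold ratio.

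Of 150 recounts of genes under the alternatives, 117 stayed within 1.5 times. The 152 higher and 53 lower genes became 425 higher with no filter on low counts, 40 and 15 at a CPM of at least 5, 81 and 21 at 2-fold, and 101 and 21 with a stricter counting interval. The lower genes became 27 among protein-coding genes, and also 27 without genes that have a copy. Among protein-coding genes at a mean CPM of at least 5, the 25 higher and 8 lower became 3 and 2 at 2-fold, and the lower 4 without copies. The intervals above 0 (1277) and below 0 (1519) at any size became 710 above with the trend taken off, 775 and 1001 with the stricter interval, and 745 and 2365 with TMM factors from all genes, a scaling added after the data were seen.

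The difference between the lines had 140 genes in the positive and 82 in the negative direction over all kept genes. These became 60 and 48 at a CPM of at least 5, 76 and 28 at 2-fold, 73 and 44 with the stricter interval, and 86 and 33 without copies, and the negative ones 50 among protein-coding genes. At a mean CPM of at least 5 the 39 positive protein-coding genes became 63 with library size alone, 1 at 2-fold (31 negative became 7), and 19 and 11 without copies. The 119 genes counted only in shFAK norepinephrine became 56 with at most 1 count elsewhere and 14 with at least 16 counts.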
